A study of Glycine max with 108 samples.

Results

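RNA-seq was used to measure transcripts in leaves of soybean (Glycine max, cultivar Magellan) grown under salinity, acidity and water deficit together, and the leaves of this triple were set against those of the 3 pairs of stresses it contains. The members are the 14 leaf libraries that the sample labels assign to these treatments, of 108 samples in the series. They are 3 libraries of the triple of salinity, acidity and water deficit, 3 of the salinity-acidity pair, 3 of the salinity-water deficit pair, 3 of the acidity-water deficit pair and 2 of the untreated control. Leaves under salinity alone, acidity alone and water deficit alone, with 3 libraries each, are also used for comparison. All plants were 31 days old, had been grown from seed coated with Bradyrhizobium japonicum inoculum, and gave their leaves in pools of 5 to 7 plants per library. Salinity was 15 mM and was given once, at the start, whereas acidity was in the nutrient solution, with no pH stated in the labels for the combinations. Water deficit plants received 30% of the water available for transpiration, and all others received 100%. A column labelled as the third control equalled the mean of the other two at 99.8% of its values above 0 and was left out, so every comparison with control rests on 2 libraries. The question was what the third stress changes when it is added to a pair.

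Salinity in the root zone draws water away from the plant and loads its tissues with sodium and chloride ions. Acid soil raises the proton load on roots and alters the supply of mineral nutrients. Water deficit closes the stomata, largely through abscisic acid, and so limits the carbon supply of leaves, which makes part of the response common to drought and salinity.

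The values are FPKM, mapped fragments divided by transcript length and by library size. Of 57147 features listed, 28678 reached a mean of 1 FPKM across the 53 leaf libraries and were tested. They comprise 28355 features with a GLYMA identifier and 323 with an ENSRNA identifier. The files do not pair identifiers with gene names, and 0 of them matched the RefSeq gene table used here, so genes are given by identifier, with no name, position or role, and the tissue label could not be checked against leaf markers. The FPKM of the 14 libraries summed to between 640892 and 701602, between 39027 and 40489 features were above 0, and relative depth, read from the whole-read steps of low values, lay between 0.876 and 1.24. Absolute depth is unknown. The 100 most abundant features held 25.4% to 30.5% of the summed FPKM in the triple and 21.9% to 23.2% in the salinity-acidity pair.

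Among its pairs, the triple lay close to those that contain water deficit and far from the salinity-acidity pair. The root mean square difference between a library of the triple and a library of the salinity-water deficit pair was 0.442 on the log2(FPKM + 1) scale, as a mean of 9 library pairs with a range of 0.409 to 0.471. For the acidity-water deficit pair it was 0.464, with a range of 0.443 to 0.495. Both were little above the 0.386 between libraries of the triple itself, which ranged from 0.368 to 0.401, and none of these ranges overlapped that one. The salinity-acidity pair stood at 0.660, with a range of 0.628 to 0.695, and the control at 0.769, with a range of 0.755 to 0.780. Libraries of the salinity-acidity pair also differed more among themselves, by 0.442 with a range of 0.413 to 0.463. Within the salinity-water deficit pair the mean was 0.393, and within the acidity-water deficit pair 0.365. The part of this spread in the distances from the triple was not tested.

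**Figure D1:**
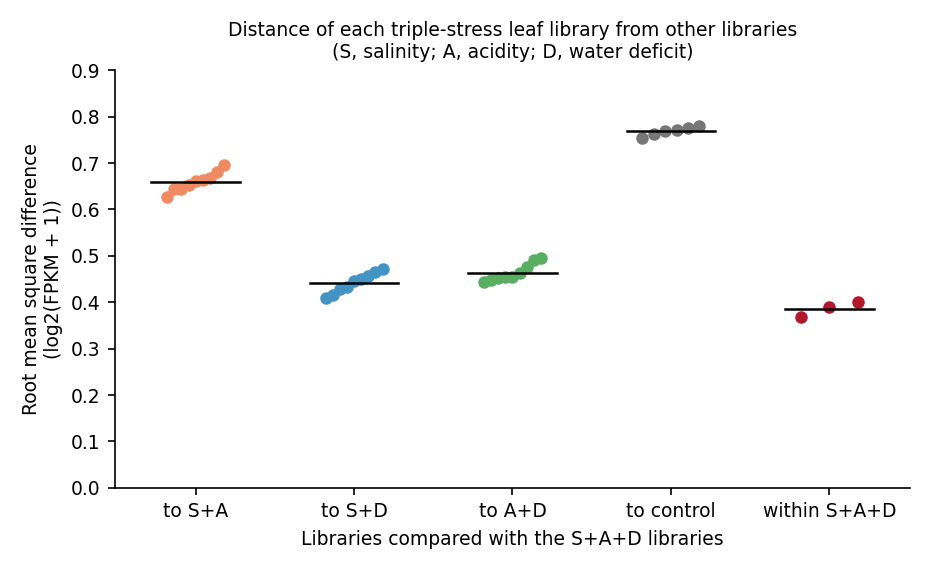
Each point is 1 pair of libraries, placed by the root mean square log2(FPKM + 1) difference over 28678 tested genes between an S+A+D library (S, salinity; A, acidity; D, water deficit) and a library of the group on the horizontal axis, and bars are means. The distances to S+D and A+D stay below 0.5, those to S+A lie between 0.628 and 0.695, and those to control are highest.

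Distance from control did not grow with the third stress in every case. Group means of the triple differed from those of the control by a root mean square of 0.71, against 1.05 for the salinity-acidity pair, 0.66 for the salinity-water deficit pair and 0.68 for the acidity-water deficit pair. Among all 17 other leaf groups, the mean profile nearest to the triple was that of the salinity-water deficit pair, at 0.306, and the farthest was that of low phosphate alone, at 0.782. Water deficit alone lay almost as far away, at 0.778, and the salinity-acidity pair at 0.566 was farther from the triple than salinity alone at 0.417. Closeness to the triple was not limited to groups with water deficit. Salinity, acidity and low phosphate together lay at 0.329, against 0.348 for the acidity-water deficit pair, and cadmium alone lay at 0.359. limma, fitted over all leaf libraries with Benjamini-Hochberg adjustment, called 15829 genes (55.2%) in the triple against control at an adjusted p under 0.05. The same fit called 20095 (70.1%) in the salinity-acidity pair, 15024 (52.4%) in the salinity-water deficit pair and 14367 (50.1%) in the acidity-water deficit pair. These 4 comparisons share their 2 control libraries. In bulk leaves, fewer cells of a type and less RNA per cell cannot be told apart.

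The number of genes that changed with the third stress differed widely between the 3 comparisons. Each stress was added to a different pair, so the stress added and the pair it was added to cannot be told apart. Adding water deficit to salinity and acidity changed 15476 of 28678 genes (54.0%), 1690 of them by at least 2-fold (5.89%). Adding salinity to acidity and water deficit changed 5155 genes (18%), 252 of them by at least 2-fold (0.879%). Adding acidity to salinity and water deficit changed 2224 genes (7.76%), 103 of them by at least 2-fold (0.359%). The 3 comparisons share the libraries of the triple, and each p-value measures the spread between pooled samples.

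Directions differed as well, and for salinity the majority depended on how libraries were scaled. With water deficit added, 5294 genes were higher (18.5%) and 10182 lower (35.5%) in the triple, so that 34.2% of the changed genes were higher, or 47.1% when libraries were rescaled by their median ratio over genes (median-ratio scaling). That scaling moved the median log2 difference of all tested genes to -0.02, against -0.13 as deposited. With acidity added, 1422 were higher (4.96%) and 802 lower (2.80%), a share of 63.9% higher as deposited and 59.3% after scaling. With salinity added, 1312 were higher (4.57%) and 3843 lower (13.4%), so that 25.5% were higher as deposited, but 57.7% after scaling.

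**Figure D2:**
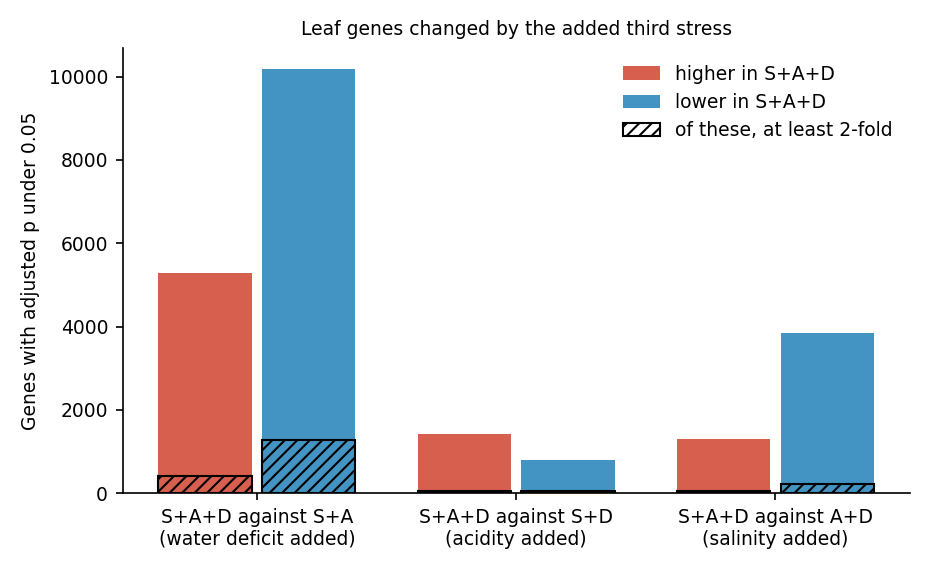
Bars count the genes called by limma at an adjusted p under 0.05 as higher (left bar) or lower (right bar) in S+A+D than in the pair named, with hatching for differences of 2-fold or more, taken as log2(FPKM + 1). Water deficit added to S+A gave 15476 genes, salinity added to A+D 5155 and acidity added to S+D 2224; the surplus of lower genes with salinity added holds for FPKM as deposited and turns round after median-ratio scaling.

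The share of changed genes grew with transcript level in all 3 comparisons. The log2(FPKM + 1) scale understates changes of low genes, and its part in this rise was not tested. With water deficit added, 43.1% of the 12477 genes averaging 1 to 5 FPKM and 73.5% of the 873 genes over 100 FPKM were called. With salinity added the same classes had 15.4% and 31.3%, and with acidity added 5.1% and 17.0%. Direction changed with level too. Of the called genes over 100 FPKM, 74.5% were higher when water deficit was added, whereas 31.6% were in the class of 1 to 5 FPKM and 28.6% in that of 5 to 20 FPKM. After median-ratio scaling these shares were 83.0%, 44.9% and 41.4%. With salinity added, 52.7% of the most abundant called genes and 15.2% of the least abundant were higher, or 88.4% and 36.6% after scaling. With acidity added the order was the opposite, at 49.3% of the most and 68.4% of the least abundant, or 44.2% and 64.5% after scaling. The part that the differing share of the most abundant features played was not tested. With water deficit added, 8 of the 323 ENSRNA features (2.48%) and 54.6% of the GLYMA features were called, and the difference between the forms was not tested.

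**Figure D3:**
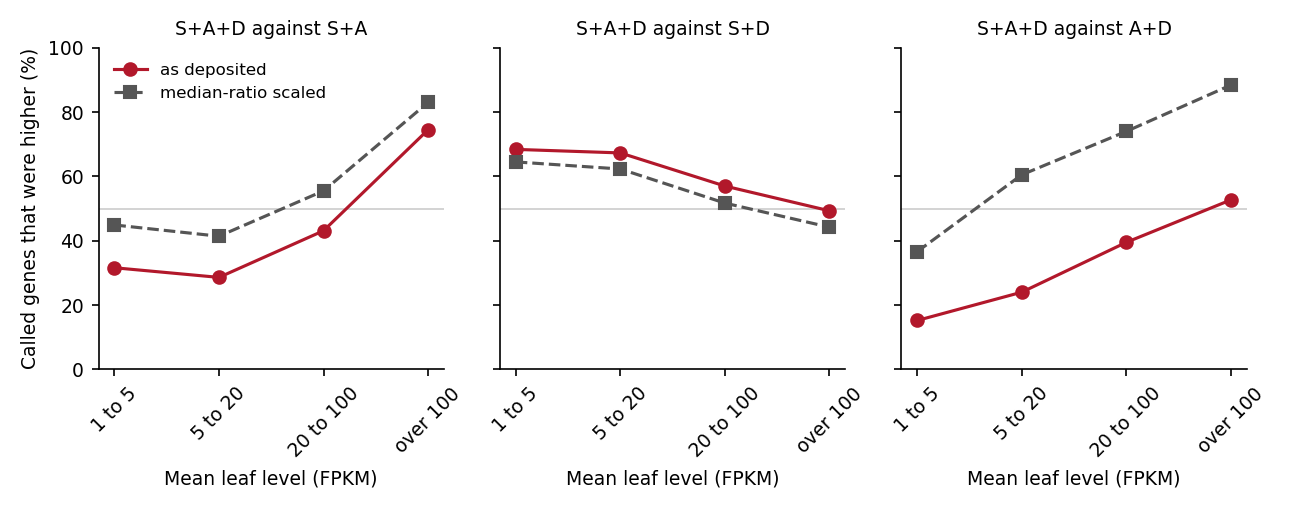
Each panel gives, for 1 comparison of S+A+D with a pair, the percentage of called genes that were higher in S+A+D, in 4 classes of mean leaf FPKM, for FPKM as deposited (circles) and with median-ratio scaling (squares). The class over 100 FPKM has the highest share when water deficit or salinity is added (74.5% and 52.7%, as deposited) and the lowest when acidity is added; with water deficit the class of 5 to 20 FPKM, at 28.6%, lies below that of 1 to 5 FPKM, at 31.6%.

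Individual genes showed what the addition of water deficit did to the salinity-acidity response. They were taken by a fixed rule as those with the largest rise and fall, an average of at least 10 FPKM in the triple or the pair, and no overlap between the libraries of the triple and of the pair. GLYMA_05G011200 had 165.8, 169.9 and 155.5 FPKM in the triple, against 18.66, 15.99 and 19.51 FPKM in the salinity-acidity pair. All libraries of the triple lay far above the pair, a difference of 3.12 (SE 0.11) on the log2(FPKM + 1) scale with an adjusted p of 4.62e-25 by limma. The salinity-water deficit pair, at 158.8, 146.7 and 158.8 FPKM, overlapped the triple, and the difference of 0.08 had a 95% interval of -0.13 to 0.30. The controls had 8.12 and 6.09 FPKM, and salinity alone averaged 252 ± 6.0 FPKM (SD, n = 3), so the salinity-acidity pair was the low exception among the salinity treatments given here.

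GLYMA_14G064600 was also low in the salinity-acidity pair. Its FPKM were 21.0, 23.7 and 21.8 in the triple and 2.32, 1.65 and 4.03 in the salinity-acidity pair, a difference of 2.71 (SE 0.13, adjusted p 7.94e-21, limma). The controls had 27.9 and 30.0 FPKM, and all libraries of the triple were below them, by 0.37 on the log2 scale (adjusted p 0.0243, limma). Water deficit alone averaged 1.88 ± 0.53 FPKM (SD, n = 3). The gene was thus low under water deficit alone and under salinity with acidity, and much nearer to control with all 3 stresses. That level was not particular to the triple. The salinity-water deficit pair averaged 29.5 ± 1.2 FPKM and the acidity-water deficit pair 21.6 ± 0.37 FPKM (SD, n = 3 each). From the latter the triple differed by 0.03 on the log2 scale (adjusted p 0.91, limma). Salinity alone averaged 36.8 ± 3.6 FPKM and acidity alone 30.2 ± 4.2 FPKM (SD, n = 3 each).

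GLYMA_15G062400 showed the reverse. It had 11.2, 8.07 and 9.41 FPKM in the triple, against 207.5, 220.3 and 179.4 FPKM in the salinity-acidity pair, a log2 difference of -4.27 (SE 0.17, adjusted p 4.57e-23, limma). The acidity-water deficit pair, at 10.4, 9.96 and 9.55 FPKM, lay within the range of the triple, and the salinity-water deficit pair was somewhat higher, at 17.7, 19.0 and 19.4 FPKM. The controls were listed at 0.126 and 0 FPKM, below every stressed library of these groups. The largest fall by the same rule was in ENSRNA050003727, listed at 0 in all libraries of the triple and in both controls, and at 18.05, 95.43 and 16.78 FPKM in the salinity-acidity pair (adjusted p 0.0132, limma). No fold is given against a group listed at 0, and without replicate 2 of the salinity-acidity pair the adjusted p was 0.0654. This feature switched between 0 and over 10 FPKM inside the groups of salinity, acidity and water deficit alone.

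Adding acidity to salinity and water deficit raised few genes strongly. GLYMA_07G144100 had 73.0, 71.2 and 76.8 FPKM in the triple, against 2.01, 2.03 and 2.29 FPKM in the salinity-water deficit pair, a log2 difference of 4.59 (SE 0.10, adjusted p 1.02e-31, limma). It was the gene with the largest such rise, and it also differed from the acidity-water deficit pair, at 6.15, 5.72 and 6.63 FPKM, by 3.38 (adjusted p 3.13e-27, limma). The salinity-acidity pair was higher still, at 173.6, 126.5 and 163.0 FPKM, so the triple lay below it by 1.04 on the log2 scale (adjusted p 1.64e-11, limma). The controls had 3.87 and 4.34 FPKM, acidity alone averaged 18.2 ± 2.7 FPKM and salinity alone 7.36 ± 0.11 FPKM (SD, n = 3 each). Among the groups given here, the high levels were those where salinity and acidity were both present, with or without water deficit.

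GLYMA_10G249200 ranked second with acidity added and first with salinity added, but varied between libraries. It had 18.3, 24.3 and 32.0 FPKM in the triple, against 0.877, 1.03 and 0.845 FPKM in the salinity-water deficit pair and 0.625, 0.720 and 0.767 FPKM in the acidity-water deficit pair. The log2 differences were 3.72 (SE 0.98, adjusted p 0.013) and 3.89 (adjusted p 0.00429) by limma. In the salinity-acidity pair 1 library had 30.7 FPKM and the others 1.15 and 1.35 FPKM, which is as large a spread inside a group as between groups. Without replicate 3 of the triple, the difference from the salinity-water deficit pair was 3.53 with an adjusted p of 0.0541.

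The 2 largest falls with acidity added were in genes whose highest means, among these groups and the single stresses, came with salinity and without acidity. GLYMA_14G165000 had 1.53, 1.52 and 1.57 FPKM in the triple, against 12.6, 12.5 and 12.5 FPKM in the salinity-water deficit pair, a log2 difference of -2.41 (SE 0.11, adjusted p 5.23e-21, limma). Salinity alone averaged 14.7 ± 0.37 FPKM (SD, n = 3), while the salinity-acidity pair was at 0.446, 0.278 and 0.319 FPKM and the controls at 0.407 and 0.669 FPKM. GLYMA_08G116900 had 0.766, 1.01 and 0.966 FPKM in the triple, against 11.0, 10.0 and 10.7 FPKM in the salinity-water deficit pair, a log2 difference of -2.60 (SE 0.12, adjusted p 1.12e-19, limma). Its mean was 5.56 ± 0.72 FPKM under salinity alone and 0.400 ± 0.19 FPKM in the salinity-acidity pair (SD, n = 3 each).

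Adding salinity to acidity and water deficit lowered 2 genes that the acidity-water deficit pair had raised above control. GLYMA_03G101800 had 0.812, 0.664 and 0.755 FPKM in the triple, against 18.9, 18.4 and 17.7 FPKM in the acidity-water deficit pair, a log2 difference of -3.47 (SE 0.10, adjusted p 5.38e-28, limma). The controls, at 1.77 and 1.73 FPKM, were above every library of the triple and below every library of that pair. GLYMA_13G278000 had 0.690, 0.170 and 0 FPKM in the triple, against 13.63, 19.72 and 18.05 FPKM in the acidity-water deficit pair, a log2 difference of -3.84 (SE 0.15, adjusted p 1.47e-22, limma). The salinity-acidity pair had 11.8, 16.9 and 17.0 FPKM, so this gene was on in both of the pairs with acidity and near 0 in the triple. The controls were listed at 0, and salinity, acidity and water deficit alone averaged at most 0.251 FPKM.

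Genes in which 1 pair stood apart from the other two were examined next. Such genes were chosen by the means of the 9 pair libraries, where a pair's mean lay at least 2-fold above or below both others and those lay within 0.5 of each other on the log2 scale. Features that switched between 0 and over 1 FPKM inside a pair, the triple or the control were left out, so the triple and control entered the choice through that filter. Because the pair libraries made the choice, what follows is a description with no test. No matching share over all tested genes is given beside the shares of these sets. The salinity-acidity pair stood apart upward in 1223 genes and downward in 353, the acidity-water deficit pair in 92 and 5, and the salinity-water deficit pair in 19 and 10.

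The triple lay nearer to the 2 agreeing pairs in most of these genes, which a choice of genes with 1 outlying pair favours in advance. Of the 1223 genes high in the salinity-acidity pair, the triple lay nearer to the other pairs in 1202 (98.3%). Their median log2 difference from control was 1.24 in the triple, 2.37 in the salinity-acidity pair, 0.94 in the salinity-water deficit pair and 1.03 in the acidity-water deficit pair. The triple was 1.12 below the salinity-acidity pair and 0.21 above the other pairs in the median, and its 3 libraries gave medians between -1.14 and -1.12 against that pair. Of the 353 low genes, the triple was nearer to the other pairs in 336 (95.2%), with medians of -0.49 from control in the triple, against -1.56, -0.24 and -0.15 in the salinity-acidity, salinity-water deficit and acidity-water deficit pairs. The choice itself set the pairs apart, so nothing is read from the size of these differences or shares. Over all tested genes, too, the libraries of the triple were nearer to the salinity-water deficit pair (0.442) and the acidity-water deficit pair (0.464) than to the salinity-acidity pair (0.660).

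The acidity-water deficit pair was described in the same way, with the same limit from the choice of genes. Of its 92 high genes, the triple was nearer to the other pairs in 86 (93.5%). The median difference from control was -0.47 in the triple, against 0.65 in the acidity-water deficit pair, -0.77 in the salinity-acidity pair and -0.60 in the salinity-water deficit pair. The median of this set was thus above 0 in 1 pair and below 0 in the triple. In the small sets the triple was nearer to the other pairs in 14 of the 19 and 6 of the 10 genes in which the salinity-water deficit pair stood apart, and in 3 of the 5 low genes of the acidity-water deficit pair.

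**Figure D4:**
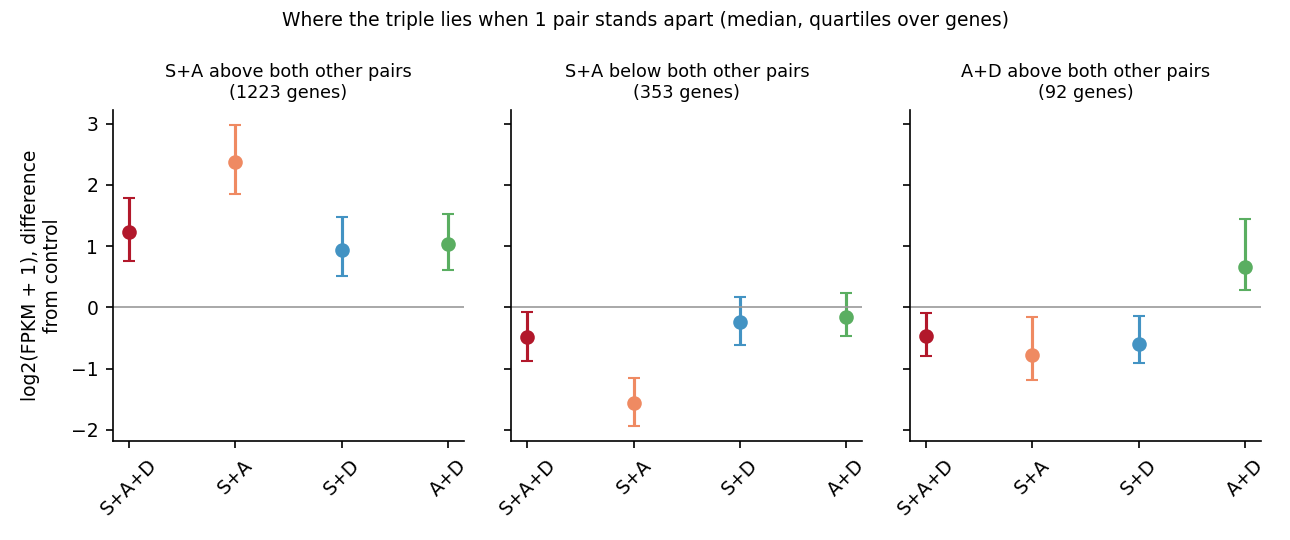
Panels show the 3 sets of genes in which 1 pair stood at least 2-fold apart from both others, with the median (points) and quartiles (bars) over genes of the log2(FPKM + 1) difference of each group's mean from control. In each panel the S+A+D median lies nearer to the 2 agreeing pairs, for example at 1.24 where S+A is at 2.37. The choice of genes with 1 outlying pair favours this, so nothing is read from it.

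The effect of the added stress was then set against the effect of the same stress given alone, as the difference of the 2 log2 differences in the limma fit. Whether the pH was the same alone and in combination is not stated in the labels. Alone, water deficit changed 6905 genes against control (24.1%), acidity 3499 (12.2%) and salinity 11903 (41.5%). The effect of water deficit on top of salinity and acidity differed from its effect alone in 10724 genes (37.4%). For salinity on top of acidity and water deficit it differed in 8109 (28.3%), and for acidity on top of salinity and water deficit in 2696 (9.40%), or 1521 without control replicate 1. Of these 2696 genes, 52.0% had a higher difference in the combination as deposited, and 36.2% of the 2560 called after median-ratio scaling.

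The genes above give examples in both directions. In GLYMA_14G064600 water deficit gave a log2 difference of 2.71 when added to salinity and acidity, against -3.39 alone, and the 2 differed by 6.10 (SE 0.19, adjusted p 2.72e-26, limma). In GLYMA_05G011200 acidity gave 0.08 when added to salinity and water deficit, against 4.13 alone, and these differed by -4.05 (SE 0.16, adjusted p 5.45e-22, limma). In GLYMA_07G144100 salinity gave 3.38 when added to acidity and water deficit, against 0.71 alone, a gain of 2.67 (SE 0.15, adjusted p 1.34e-17, limma).

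Few genes went beyond every pair. The mean of the triple lay between the lowest and the highest pair mean in 21106 genes (73.6%), above all 3 in 2181 (7.61%) and below all 3 in 5391 (18.8%). All libraries of the triple were above all 9 pair libraries in 241 genes (0.840%) and below them in 552 (1.92%). With the largest of the 3 limma p-values adjusted over all tested genes, 27 genes differed from all 3 pairs in the same direction (0.0941%), 5 higher (0.0174%) and 22 lower (0.0767%). After median-ratio scaling there were 35, 18 higher and 17 lower, so the surplus of lower genes does not hold under that scaling. Without adjustment, 409 genes had a largest p under 0.05.

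The genes that went beyond the pairs also lay outside the control range. They were chosen by low or high values in the same libraries of the triple, which favours this. The shares over all tested genes carry no such choice, so nothing is read from the contrast. All 22 lower genes had every library of the triple below both controls, which held for 11348 of all tested genes (39.6%), and the 5 higher genes had every library above both, which held for 8822 (30.8%). All 3 pair means were below the control mean in 10 of the 22 lower genes (45.5%), against 35.1% of all tested genes, and above it in 1 of the 5 higher genes (20%), against 34.9%. GLYMA_01G124500 had 19.1, 18.9 and 15.9 FPKM in the triple. The pairs had 70.2, 82.5 and 74.2 FPKM (salinity-acidity), 41.2, 41.1 and 40.3 FPKM (salinity-water deficit) and 115.4, 115.3 and 115.1 FPKM (acidity-water deficit), and the controls 229.8 and 238.1 FPKM. All 3 pairs were below control and the triple was lower again, by at least 1.15 on the log2 scale against each pair (adjusted largest p 2.79e-13, limma). Water deficit alone, at 29.7 ± 3.0 FPKM (SD, n = 3), was closer to the triple than any pair was.

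GLYMA_06G109200 had 23.3, 25.4 and 23.1 FPKM in the triple, against 53.7, 41.2 and 52.0, then 114.6, 109.8 and 106.8, then 53.05, 51.67 and 47.93 FPKM in the salinity-acidity, salinity-water deficit and acidity-water deficit pairs. The controls had 155.2 and 171.0 FPKM. The smallest difference from a pair was -0.99 (adjusted largest p 6.13e-06, limma), and no library of the triple reached any of the others.

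Of the higher genes, GLYMA_07G156100 had 63.6, 59.5 and 63.4 FPKM in the triple, against 41.1, 40.4 and 41.4 FPKM in the nearest pair, salinity-water deficit, and 47.2 and 40.1 FPKM in the controls. The other pairs lay between 26.4 and 29.8 FPKM. The smallest difference was 0.59 (adjusted largest p 1.12e-07, limma), so this gene was above control with 3 stresses and at or below control with 2. Salinity alone was nevertheless higher, at 74.9 ± 6.1 FPKM (SD, n = 3). Acidity alone, at 57.0 ± 2.1 FPKM (SD, n = 3), was also above control, by 0.38 on the log2 scale (adjusted p 0.00013, limma). Water deficit alone averaged 48.5 ± 2.0 FPKM (SD, n = 3), a difference of 0.15 from control (adjusted p 0.115, limma). GLYMA_09G202600 had 20.3, 20.2 and 21.3 FPKM in the triple, against 13.8, 13.3 and 13.4 FPKM in the salinity-water deficit pair and 11.2 and 11.9 FPKM in the controls. The other pairs lay between 6.98 and 13.1 FPKM. Its smallest difference was 0.58 (adjusted largest p 0.00011, limma), and salinity alone again averaged more, 27.6 ± 0.76 FPKM (SD, n = 3).

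**Figure D5:**
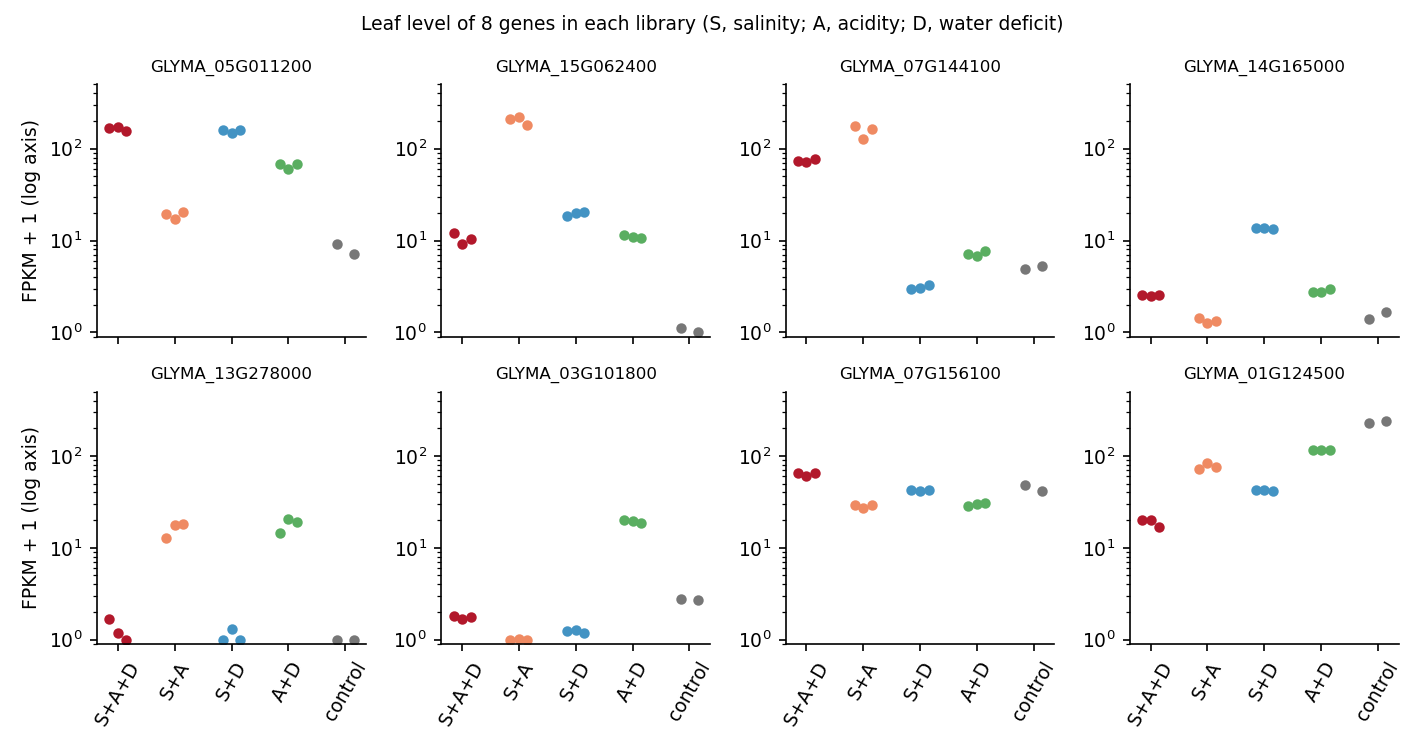
Points are single libraries of 8 genes in S+A+D, the 3 pairs and control, as FPKM + 1 on a log axis. S+A+D lies with S+D in GLYMA_05G011200, with A+D in GLYMA_15G062400, between S+A and the others in GLYMA_07G144100, and beyond all 3 pairs in GLYMA_07G156100 and GLYMA_01G124500.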

How the data were processed

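Leaf RNA-seq values of the triple, its 3 pairs and the control were used as FPKM, computed by the authors before they were deposited in 1 table of all leaf samples. Per the submitters' processing notes HISAT2 (version 2.2.1) was used; the counting tool, genome build and annotation are not given in the sources used here. Flower data were not used here. FPKM carry no absolute depth, so a count test was not run. Over 5468 features, 75.9% of low values came within 0.1 of whole reads at the estimated relative depths, against 20% for evenly spread values. The depths and the size of 1 read were taken from these same low values, so the 20% is not a fair chance level.

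The model was fitted in R 4.3.3 with limma 3.58.1 to log2(FPKM + 1) of 53 leaf libraries in 18 groups with trend and robust moderation, for genes with a leaf mean of at least 1 FPKM. This scale understates changes of low genes. Genes were called at a Benjamini-Hochberg adjusted p under 0.05 over all 28678 tested genes. Genes beyond every pair needed 3 differences of 1 sign, with the largest p adjusted. The scripts were tested on simulated data.

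Named genes were the 2 highest-ranked of up to 6 per direction and comparison, among called genes with a mean of at least 10 FPKM in the triple or the pair, libraries that do not overlap, and no group of the 5 holding both a library at 0 and one above 1 FPKM. The members, rules and lists were chosen with earlier results of these data known. The comparison with single stresses, the library distances and the sets with 1 pair apart were added after the data were seen. Gene lists by description were not applied, since no identifier matched a description. Alternatives were a pseudocount of 0.1, no filter, median-ratio scaling, a fit of the 5 groups, a replicate block, each library left out, the averaged control column counted, and no trend. Plots were drawn with matplotlib 3.10.9 and numpy 2.4.6 from tables read with pandas 2.3.3 in Python 3.11.15.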

Additional observations from a re-analysis of the deposited data

Results flagged for a closer look

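In 3 cases the effect of a stress differed between backgrounds by a test of the difference itself, limma's contrast of the addition to a pair minus the same stress alone. Water deficit added to salinity and acidity differed from water deficit alone in 10724 genes. Salinity added to acidity and water deficit differed from salinity alone in 8109 genes. Acidity added to salinity and water deficit differed from acidity alone in 2696 genes. Each contrast uses the same 2 control libraries for the stress alone and the same 3 libraries of the triple for the addition, so the 3 counts are not independent. The acidity count was 1521 without control replicate 1.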

How the results depend on the processing

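No difference of a named gene and no median of a set of genes changed sign under these alternatives. The majority direction of the changed genes did change with median-ratio scaling for added salinity (25.5% higher as deposited, 57.7% after scaling), for genes beyond every pair (5 of 27 and 18 of 35 higher) and for added acidity against acidity alone (52.0% and 36.2% higher), and for the triple (44.42% and 53.03%) and the salinity-water deficit pair (42.4% and 54.2%) against control. The majority for added acidity against acidity alone also turned with a pseudocount of 0.1 (48.7% higher) and without replicate 2 of the triple (48.7%), replicate 3 of the salinity-water deficit pair (48.2%) or control replicate 1 (39.8%). Of the counts, distances and medians over sets of genes, 336 values under alternatives stayed near the reported one and 18 moved. Of the values for named genes, 334 stayed on the same side of the threshold, and 2 lost the call when 1 library was left out, GLYMA_10G249200 (adjusted p 0.0541) and ENSRNA050003727 (adjusted p 0.0654). With a pseudocount of 0.1 the library distances of the triple were 0.907 to the salinity-acidity pair, 0.690 to the salinity-water deficit pair, 0.711 to the acidity-water deficit pair and 1.06 to control, and with no filter 0.556, 0.380, 0.406 and 0.632. Median-ratio scaling moved the first of these distances to 0.639. The median difference of the triple from the salinity-acidity pair in genes high there was -1.15 with a pseudocount of 0.1, -1.13 with no filter and -1.04 after scaling, and in genes low there it was 1.07 with that pseudocount and 1.07 after scaling. In genes high in the acidity-water deficit pair it was -1.02 with a pseudocount of 0.1. The cause of these shifts was not tested.

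Leaving out 1 library at a time gave 14232 to 15491 genes for added water deficit, 1503 to 2281 for added acidity, 3709 to 5325 for added salinity and 20 to 28 beyond every pair. The difference between added acidity and acidity alone gave 1521 to 2818, and the medians against the salinity-acidity pair ranged from -1.13 to -1.11 in genes high there and from 1.01 to 1.04 in genes low there. Deviations of same-numbered libraries correlated between -0.0977 and 0.0567 with the pairs, so replicate numbers were not used to pair samples. Such weak correlations do not show whether same-numbered plants were grown together. With a replicate block the counts were 15460, 2191, 5119 and 28, and no call on a named gene changed. Effects against single stresses could not be fitted with 5 groups only, and the block, the moderation and that fit do not enter the distances or set medians. With 2 controls and unknown depth, small differences from control and values near 0 are the least certain.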
